A study of Homo sapiens with 6 samples.

Results

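The EGFR family consists of 4 receptors, EGFR, ERBB2, ERBB3 and ERBB4, and of the ligands that bind them, of which 6 were examined here: EGF, TGFA, AREG, EREG, HBEGF and BTC. These 10 genes were taken as every non-control spot of the array that carries one of their symbols, out of 34423 gene names on the array. They were represented by 18 probes, of which 16 passed the detection criterion, for 9 of the 10 genes. EGF was the gene without a probe that passed. Transcripts were measured in 6 tumors grown from BxPC-3 cells, an established human line of pancreatic adenocarcinoma, under the skin of nude mice. Control mice (3 tumors) received the vehicle alone, and treated mice (3 tumors) received deferasirox (DFX), an oral iron chelator, by gavage at 200 mg/kg every second day for 21 days, from a tumor volume of 150 mm3 onward. No gene was altered in either group. The mice were female BALB/c (nu/nu) animals, which lack mature T cells but keep their other blood, vessel and connective tissue cells, and mouse transcripts could therefore be present in the RNA. All tumors derive from 1 cell line, and the labels give a separate tumor for each array.

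The ligands are made as membrane proteins and are released by proteases of the ADAM family. A bound receptor pairs with another, and the kinases of the pair phosphorylate each other's tails, which recruit adaptors and start the RAS-ERK and PI3K-AKT cascades. All 6 ligands bind EGFR, ERBB4 is also a receptor for EREG, HBEGF, BTC and the neuregulins, ERBB2 has no known ligand, and ERBB3 binds neuregulins but has little kinase activity of its own. In pancreatic ductal carcinoma the family is known for frequent expression of EGFR and its ligands, and EGFR is the target of erlotinib.

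All arrays lay on 1 slide, with the control tumors in row 1 and the DFX tumors in row 2, so that row and treatment cannot be told apart. The share of probes well above background ranged from 50.3% to 56.5% over the arrays, and no spot was saturated. All 10 of 10 genes of a ductal carcinoma epithelium list, among them KRT7, KRT19, CDH1 and EPCAM, were well above background in every tumor. So were all 6 tested leukocyte genes, all 5 tested red cell genes and 17806 of 22718 tested genes. Detection therefore does not tell cell types apart or test the label of the cell line. Control replicate 3 stood apart from the other controls. The log2 of the summed intensity of 10 genes of intestinal epithelium, which the brightest probes dominate, was 10.35 in that tumor, against 12.68 and 12.96 in the other controls and 13.45 to 14.28 in the DFX tumors.

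Because a family member can be read at several places of its transcript, the probe sequences matter for what was measured. EGFR has 3 probes for different transcript forms, of which the first 30 bases of the probes at transcript ends and all 60 bases of the coding probe are shown, together with the coding probe of AREG, whose gene has a near-identical copy in the hg19 annotation. Capitals mark a run of 15 bases that a probe of another gene on the array also holds, which was found for bases 1 to 15 of the first one.
EGFR full-length transcript NM_005228, chr7:55274841-55274900, plus strand of hg19, first bases: TATCAAGGAAGAAATggttcagaaaatatt
EGFR variant 3, NM_201283, chr7:55224558-55224617, plus strand of hg19, first bases: ggaaatcagtgttttagagagagaactttt
EGFR variant 2, NM_201282, chr7:55231446-55231505, plus strand of hg19: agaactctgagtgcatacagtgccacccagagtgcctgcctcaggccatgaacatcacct
AREG, NM_001657, chr4:75318293-75318352, plus strand of hg19: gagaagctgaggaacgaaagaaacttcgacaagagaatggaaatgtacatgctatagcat
Variant 3 is a truncated form that encodes only the outer part of the receptor. The coding probe is annotated to variant 2, another truncated form, but its bases encode part of the extracellular domain that full-length EGFR also has, so it is not specific to 1 form. Probe intensities cannot be compared between probes, only between tumors for the same probe.

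None of the 16 tested probes of the family differed between DFX and control tumors at an unadjusted p under 0.05 (limma, 0 of 16), against 8.41% of all 31807 tested probes. With the brightest tested probe standing for each gene, 0 of 9 genes were called, against 7.98% of 22718 genes. After Benjamini-Hochberg adjustment over all probes, 0 of 16 were called, as were 0% of all probes, and the adjusted p values of the family ran from 0.611 to 0.983. The mean was higher in DFX tumors for 11 probes and lower for 5. The log2 fold changes lay between -0.37 and 0.37, with a median of 0.05, beside -0.02 for all tested probes. The 95% confidence intervals, which reached between 0.27 and 0.88 to either side on the log2 scale, lay within 1 log2 unit of no change for 15 of the 16 probes, so that a 2-fold change in either direction lay outside the intervals of those 15 probes. Groups did not overlap for 1 of 16 probes, against 15.5% of all tested probes. Since these are whole tumors, fewer cells of a type and less RNA per cell cannot be told apart.

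**Figure D1:**
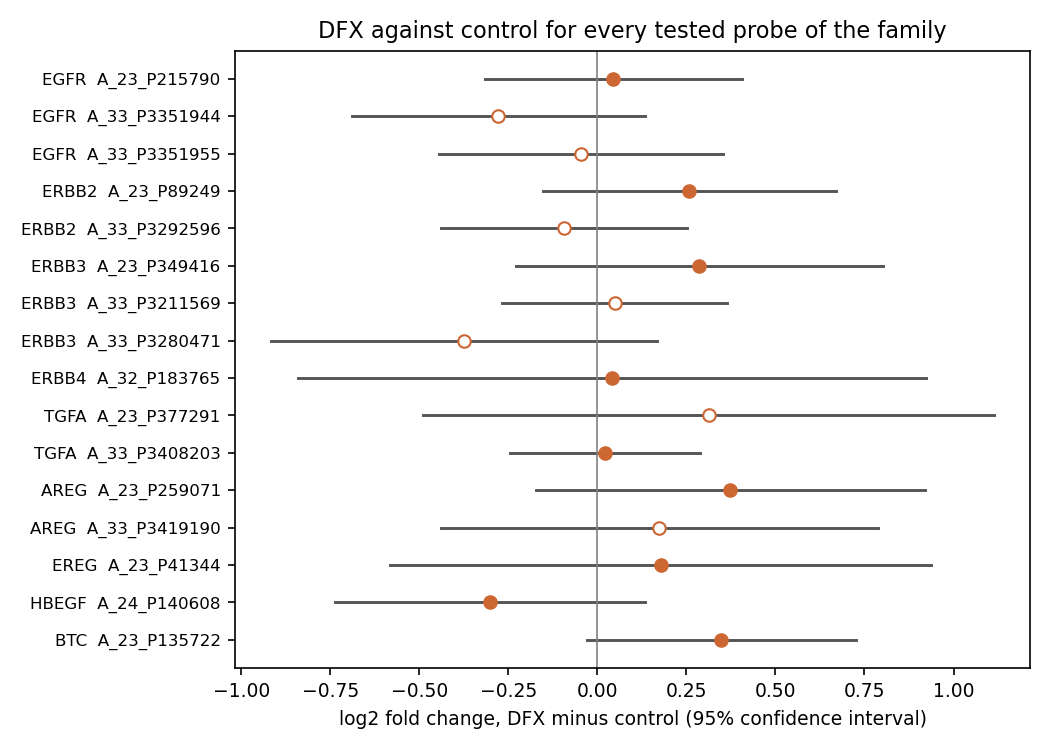
Log2 fold change, DFX minus control, of each tested probe (points) with its 95% confidence interval from limma (lines, 3 tumors per group). Filled points mark the brightest tested probe of a gene and open points its other probes. All 16 intervals cross 0, and that of BTC reaches from -0.03 to 0.73.

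EGFR, the receptor that gives the family its name, differed between groups by less than the spread between tumors at the end of its full-length transcript. At the 3′ end of the full-length transcript the normalized log2 intensity was 10.71, 10.99 and 10.84 for controls and 10.71, 10.84 and 11.12 for DFX tumors. The groups overlapped, with the highest value in DFX replicate 3 and nearly equal lowest values in control replicate 1 and DFX replicate 1. Its log2 fold change was 0.04 ± 0.15 (SE, n = 3 tumors per group), with an unadjusted limma p of 0.773.

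For EGFR variant 3, the soluble form, the log2 intensity was 9.35, 9.43 and 9.67 in control tumors and 8.997, 9.14 and 9.49 in DFX tumors. DFX replicates 1 and 2 lay below every control, while DFX replicate 3 lay between control replicates 2 and 3. The log2 fold change was -0.28 ± 0.17 (SE), with an unadjusted limma p of 0.15. Without DFX replicate 3 it was -0.42, with an unadjusted p of 0.0375, and without control replicate 3 it was -0.18. The coding probe of the extracellular domain read 5.70, 6.05 and 5.66 in controls and 5.90, 5.54 and 5.83 in DFX tumors, which overlapped, with a log2 fold change of -0.05.

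Within a tumor, the gap between the full-length and variant 3 probes was wider in every DFX tumor than in any control. The log2 difference between both probes was 1.36, 1.56 and 1.16 in control tumors (1.36 ± 0.20, SD, n = 3) and 1.72, 1.70 and 1.63 in DFX tumors (1.68 ± 0.05, SD, n = 3). Only its change between groups can be read, which was 0.32 on the log2 scale. This was the 1 pair without overlap among 9 pairs of probes of the same gene, while 15.5% of all tested probes, taken singly, did not overlap. The pair was singled out after its values were seen. Its two-sided exact permutation p was 0.1, the smallest that 3 against 3 tumors allow, and 0.675 after Benjamini-Hochberg adjustment over the 9 pairs. The change was between 0.22 and 0.42 when any 1 tumor was left out. Probes of a gene moved in opposite directions in 5 of the 9 pairs.

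**Figure D2:**
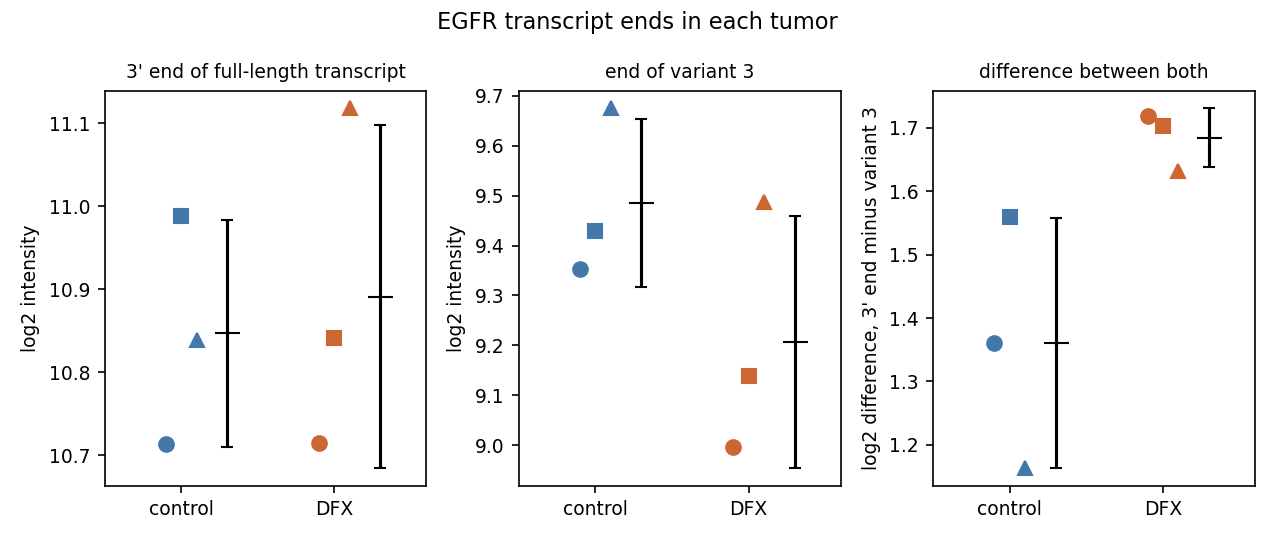
Log2 intensity of the full-length EGFR probe (left) and the variant 3 probe (middle), and the log2 difference between both (right), in the 3 control and 3 DFX tumors. Circles, squares and triangles are replicates 1, 2 and 3, and the bars give mean ± SD. Each probe overlaps between groups, whereas the differences lie at 1.16 to 1.56 in controls and 1.63 to 1.72 after DFX.

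ERBB2, the preferred partner of the other receptors, was read by a probe spotted 10 times. Its log2 intensity was 12.11, 11.86 and 11.55 in control tumors and 12.11, 11.99 and 12.20 in DFX tumors. Control replicate 3 was the lowest tumor, and control replicate 1 lay within the DFX range. This gave a log2 fold change of 0.26 ± 0.17 (SE), with an unadjusted limma p of 0.176, and 0.11 without control replicate 3. A second ERBB2 probe, annotated to the transcript AB025286, had a log2 fold change of -0.09.

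ERBB3, which couples ERBB2 to PI3K, followed the same order of control tumors. The log2 intensity was 12.17, 12.01 and 11.45 in control tumors and 12.11, 12.33 and 12.04 in DFX tumors. Again control replicate 3 was the lowest, and control replicate 1 lay within the DFX range. The log2 fold change was 0.29 ± 0.21 (SE), with an unadjusted limma p of 0.224, and 0.07 without control replicate 3. The probe annotated to the short form NM_001005915 read 9.47, 9.36 and 9.46 in controls and 9.37, 9.37 and 9.70 in DFX tumors. Its log2 fold change was 0.05. Whether this probe reads that form alone was not tested. The last ERBB3 probe, which was dim, was well above background in all 3 controls but in 1 of 3 DFX tumors. It had a log2 fold change of -0.37 (unadjusted limma p 0.143), -0.58 without DFX replicate 1 (unadjusted p 0.025) and -0.20 without DFX replicate 3 (unadjusted p 0.38). With normexp it was -0.15 and with the raw mean signal -0.12.

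ERBB4, the neuregulin receptor with an active kinase, was the most variable receptor. Its log2 intensity was 6.09, 5.65 and 4.83 in control tumors and 5.70, 5.13 and 5.86 in DFX tumors, with control replicate 3 again the lowest. This gave a log2 fold change of 0.04 ± 0.36 (SE), and -0.31 without control replicate 3. Its other probe was not well above background on any array and was not tested.

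Among the ligands, EGF itself was not well above background on any array. TGFA, the ligand known from autocrine loops in carcinoma, had the narrowest confidence interval of the family at its brighter probe, which read 9.03, 8.95 and 9.09 in control tumors and 9.12, 9.10 and 8.92 in DFX tumors. The groups overlapped, with a log2 fold change of 0.02 ± 0.11 (SE) and an unadjusted limma p of 0.852. Its dimmer probe had a log2 fold change of 0.31, which was -0.03 without DFX replicate 1, the tumor with the highest value at 6.90.

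BTC, betacellulin, a ligand of both EGFR and ERBB4, was the family member whose groups did not overlap. The log2 intensity was 8.38, 7.93 and 8.26 in control tumors and 8.58, 8.39 and 8.64 in DFX tumors. The lowest DFX tumor, replicate 2, exceeded the highest control, replicate 1, by less than the spread within either group. Its log2 fold change was 0.35 ± 0.16 (SE), a 1.27-fold higher mean, with an unadjusted limma p of 0.0654 and an adjusted p of 0.611. The unadjusted p was 0.0407 without control replicate 1 and 0.181 without control replicate 2, and the log2 fold change was 0.20 with the slide column as a block.

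AREG, amphiregulin, had the largest rise in the mean among the brightest probes. The log2 intensity was 10.29, 10.20 and 10.96 in control tumors and 11.01, 10.78 and 10.79 in DFX tumors. Control replicates 1 and 2 lay below all DFX tumors and control replicate 3 within their range. The log2 fold change was 0.37 ± 0.22 (SE), with an unadjusted limma p of 0.146. Without control replicate 3 it was 0.61, with an unadjusted p of 0.00489. The coding probe read 8.71, 9.29 and 9.54 in controls and 9.65, 9.21 and 9.20 in DFX tumors. At that probe the groups overlapped also without control replicate 3, since control replicate 2 lay above DFX replicates 2 and 3, and the log2 fold change was 0.17 ± 0.25 (SE). These probes could not separate AREG from the near-identical copy that the hg19 annotation holds. The RefSeq annotation of GRCh38.p14 has 0 protein-coding genes between AREG and its neighbors EREG and BTC.

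EREG, epiregulin, another low-affinity ligand, showed the widest spread among the controls of any tested ligand. Its log2 intensity was 7.97, 8.49 and 9.13 in control tumors and 8.996, 8.56 and 8.56 in DFX tumors. Control replicate 1 was the lowest and control replicate 3 the highest of all 6 tumors. Its log2 fold change was 0.18 ± 0.31 (SE), with an unadjusted limma p of 0.59. Without control replicate 3 it was 0.48, and without control replicate 1 it was -0.10.

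HBEGF, the heparin-binding ligand, was the only ligand whose brightest tested probe had a lower mean after DFX. Its log2 intensity was 9.76, 10.13 and 10.37 in control tumors and 9.67, 9.86 and 9.83 in DFX tumors. Control replicate 1 lay among the DFX tumors, and control replicate 3 was the highest. DFX minus control came to -0.30 ± 0.18 (SE) on the log2 scale, with an unadjusted limma p of 0.14. It reached -0.47 without control replicate 1, with an unadjusted p of 0.0225, and -0.16 without control replicate 3.

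**Figure D3:**
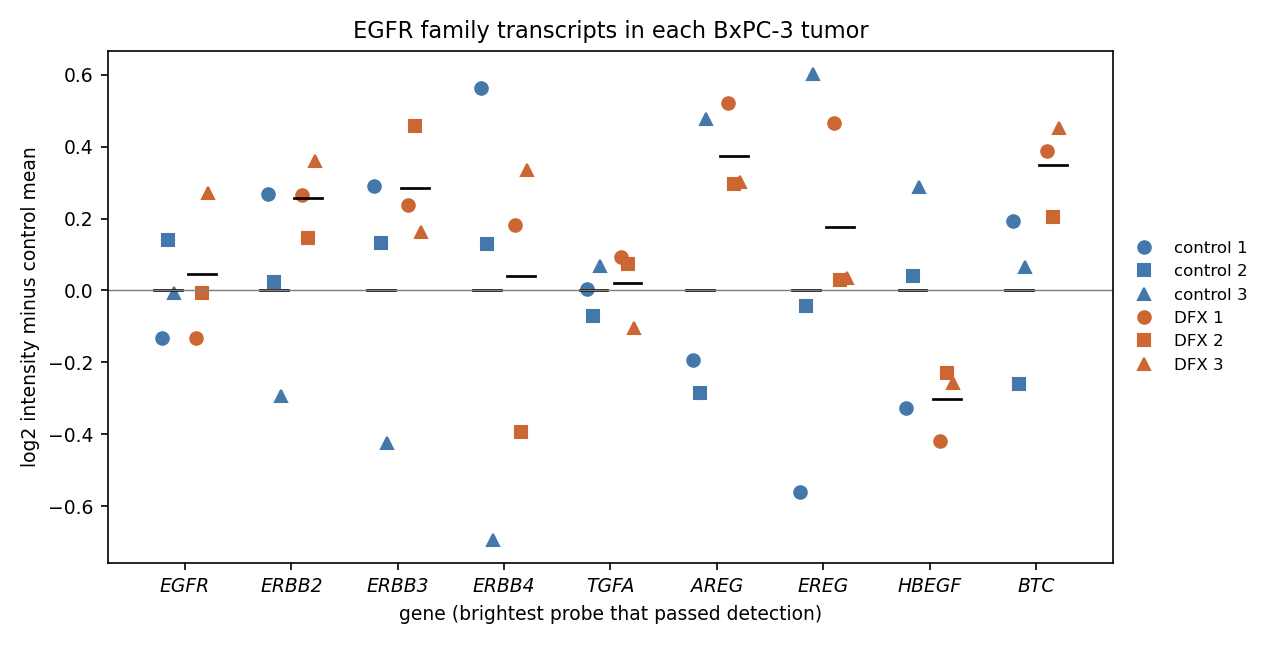
Log2 intensity of the brightest tested probe of each gene, minus the mean of its 3 control tumors (y axis), for each control (blue) and DFX (orange) tumor. Circles, squares and triangles are replicates 1, 2 and 3, and black bars are group means. Control replicate 3 is the lowest control for ERBB2, ERBB3 and ERBB4 and the highest for TGFA, AREG, EREG and HBEGF, and the groups are separate for BTC.

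Across the 6 tumors the members formed 36 pairs, and none of their correlations passed Benjamini-Hochberg adjustment, with a lowest adjusted exact permutation p of 0.4. AREG and EREG had a Pearson's r of 0.81 (exact permutation p 0.0542, adjusted 0.4) and Spearman's rho of 0.89 (exact permutation p 0.0333, adjusted 0.599). The coefficient r was 0.94 without the 2 tumors farthest from the median of the first-named gene, here and below called the 2 farthest tumors. It was 0.77 without control replicate 3 and 0.85 after the group means were removed. ERBB2 and HBEGF had the strongest opposite relation, with r of -0.93 (exact permutation p 0.0167, adjusted 0.4) and rho of -0.77 (exact permutation p 0.103, adjusted 0.742). That relation had an r of -0.21 without the 2 farthest tumors, -0.79 without control replicate 3 and -0.90 after the group means were removed. Leaving out the farthest tumors narrows the range, so the first value cannot tell whether the relation rested on them. ERBB3 and HBEGF had an r of -0.83 (exact permutation p 0.0444, adjusted 0.4) and a rho of -0.60 (exact permutation p 0.242, adjusted 0.857), with r of -0.77 without the 2 farthest tumors and -0.35 without control replicate 3. EGFR and TGFA had an r of -0.82 (exact permutation p 0.0556, adjusted 0.4) and a rho of -0.60 (exact permutation p 0.242, adjusted 0.857), and the r was 0.34 without the 2 farthest tumors and -0.84 without control replicate 3. ERBB2 and ERBB3 had an r of 0.80 (exact permutation p 0.0958, adjusted 0.575) and a rho of 0.49 (exact permutation p 0.356, adjusted 0.857), and an r of -0.04 without control replicate 3. Control replicate 3 was the lowest tumor for both genes, so leaving it out narrows the range here as well. The r of ERBB2 and ERBB3 was 0.71 after the group means were removed. ERBB2 and ERBB4 had an r of 0.81 (exact permutation p 0.0403, adjusted 0.4) and a rho of 0.89 (exact permutation p 0.0333, adjusted 0.599), with r of 0.78 without the 2 farthest tumors and 0.50 without control replicate 3.

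**Figure D4:**
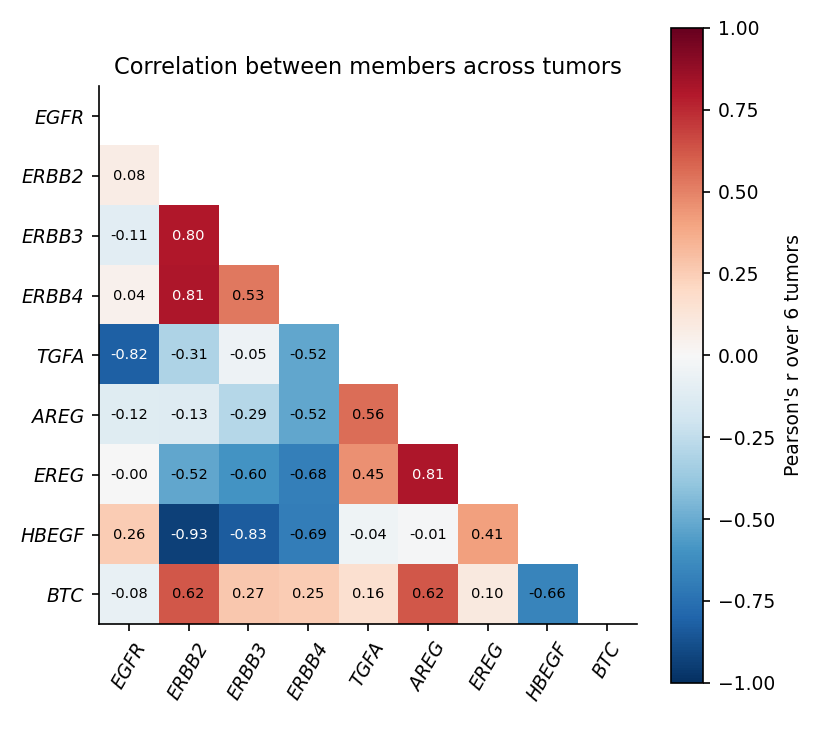
Pearson's r between the brightest tested probes of each pair of genes across the 6 tumors, with red for positive and blue for negative values. The coefficients largest in size are those of ERBB2 with HBEGF (-0.93), ERBB3 with HBEGF (-0.83), EGFR with TGFA (-0.82), ERBB2 with ERBB4 (0.81) and AREG with EREG (0.81), and no pair passed adjustment over the 36 pairs.

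AREG and EREG are neighbors. In the RefSeq annotation of GRCh38.p14 the ligand genes EPGN, EREG, AREG and BTC follow each other on chromosome 4 with 0 protein-coding genes between them. In the hg19 positions of the array, the EREG and AREG probes start 64.3 kb apart, and those of AREG and BTC 357.5 kb apart. AREG and BTC had an r of 0.62 (exact permutation p 0.185, adjusted 0.606) and a rho of 0.54 (exact permutation p 0.297, adjusted 0.857). The r of AREG and BTC was -0.20 without the 2 farthest tumors and 0.80 without control replicate 3. After the group means were removed it was 0.33. EREG and BTC, of the same cluster, had an r of 0.10 (exact permutation p 0.865, adjusted 0.996), and -0.12 after the group means were removed. The 250 bases before the RefSeq start of AREG and EREG are shown because these ligand genes lie side by side. The correlation of AREG and EREG did not pass adjustment. Capitals mark TGACGTCA, the cAMP response element, and TATAAA, the TATA box. An AP-1 motif, TGAGTCA or TGACTCA, was also searched, as was ACGTG, 1 form of the core of the hypoxia response element. These motifs were searched on both strands, and none of them contains another. The form GCGTG was not searched, and the AREG bases below hold it, so a lack of that core cannot be read from ACGTG.
AREG, chr4:74444886-74445135, plus strand of GRCh38.p14: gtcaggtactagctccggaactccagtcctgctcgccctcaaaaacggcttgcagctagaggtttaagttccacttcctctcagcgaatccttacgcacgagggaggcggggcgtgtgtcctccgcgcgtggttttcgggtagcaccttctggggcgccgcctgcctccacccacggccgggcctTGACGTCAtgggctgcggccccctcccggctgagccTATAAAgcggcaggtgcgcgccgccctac
EREG, chr4:74364895-74365144, plus strand of GRCh38.p14: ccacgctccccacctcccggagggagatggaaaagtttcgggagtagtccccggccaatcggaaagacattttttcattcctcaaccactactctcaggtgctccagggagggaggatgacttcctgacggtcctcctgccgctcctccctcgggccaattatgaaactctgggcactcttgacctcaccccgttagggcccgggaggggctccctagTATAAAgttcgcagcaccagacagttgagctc
Both hold TATAAA, at 29 to 24 bases before the start in AREG and 32 to 27 bases before it in EREG, as do 10.72% of 35116 RefSeq promoters of this length. Among the 9 member genes with a promoter entry, which leaves out ERBB3, AREG was the only one that held TGACGTCA, at 65 to 58 bases before the start, which 1.65% of all promoters hold. Among 11 promoter entries for 9 member genes, the AP-1 motif was found for EGF and EGFR, beside 4.2% of all promoters, and ACGTG for 0 of the 9 genes, beside 18.5%. EGFR and TGFA have more than 1 entry, and the EGFR match is in the entry for a downstream start. These matches are descriptions of the letters.

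By Pearson's r over the 6 tumors, the genes with a pattern most like that of full-length EGFR among 17801 compared were KLF7 (0.99), SLC4A1 (0.99) and PPFIA4 (0.98). Those most like AREG were LOC648987, MRPS17 and SH3BP5L, each at 0.99. With 6 tumors and that many genes, such values describe the order of tumors only.

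The other genes of the pathway, taken from lists of other ligands, shedding enzymes, adaptors, inhibitors and induced transcripts, gave 3 calls among 58 tested genes (5.17%), beside 7.98% of all tested genes. NRG2, a neuregulin that binds ERBB3 and ERBB4, was lower in DFX tumors at its brightest tested probe. The log2 intensity of that probe was 6.87, 5.94 and 6.11 in controls and 5.54, 5.599 and 5.44 in DFX tumors. The groups did not overlap, and control replicate 1 stood highest. The log2 fold change was -0.78 ± 0.25 (SE), with an unadjusted limma p of 0.0208 and an adjusted p of 0.546, and the unadjusted p was 0.0595 without DFX replicate 3. The log2 fold change was -0.50 without control replicate 1, -0.40 with normexp and -0.36 with the raw mean signal. A dimmer tested NRG2 probe had a log2 fold change of 0.02 (unadjusted limma p 0.968), and its groups overlapped. NRG2 was 1 of 3 tested among the 5 other ligands, with a list median of -0.15, and EPGN and NRG3 did not pass detection. NRG1 had a log2 fold change of 0.15 and NRG4, an ERBB4 ligand, of -0.15.

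Of 6 shedding and trafficking genes, 0 were called by limma at an unadjusted p under 0.05. Their median log2 fold change was -0.12. ADAM17, the main sheddase of AREG, TGFA and HBEGF, read 8.72, 8.73 and 8.74 in controls and 8.51, 8.52 and 8.56 in DFX tumors. The groups did not overlap, and the log2 fold change was -0.20 ± 0.09 (SE), with an unadjusted limma p of 0.0673. With no filter on dim probes its unadjusted limma p was 0.0122. ADAM17 was named after its values were seen. RHBDF2, iRhom2, which carries ADAM17 to the cell surface, had a log2 fold change of 0.25. ADAM12 had one of -0.22 at its brightest tested probe, and the groups of neither overlapped. A dimmer tested ADAM12 probe went the other way, at 0.87 (unadjusted limma p 0.228), and its groups overlapped. Groups did not overlap for 4 of the 6 genes, beside 3507 of 22718 tested genes, and these 4 did not all move in the same direction. In the remaining pathway lists, groups did not overlap for 2 of 3 other ligands and 2 of 12 adaptors. The same held for 6 of 17 inhibitors and 1 of 20 induced transcripts.

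Of 12 adaptors and proximal effectors, 0 were called by limma (0 to 2 over the 20 alternatives), with a median log2 fold change of -0.09. The values were 0.36 for VAV2 and -0.24 for GRB7, an adaptor of ERBB2. VAV2 was at 0.53 (unadjusted p 0.0137) without control replicate 2 and at 0.21 (unadjusted p 0.261) without control replicate 1. Among 17 inhibitors and downregulators, 1 gene rose and 1 fell, and the median was -0.01. The number called was 4 without control replicate 1 and 1 without any single DFX tumor. It was 1 with the slide column as a block and 0 with the replicate number as a block. SH3KBP1, which takes part in EGFR endocytosis with CBL, read 9.94, 10.08 and 9.28 in controls and 10.27, 10.43 and 10.54 in DFX tumors. All DFX tumors lay above all controls, with control replicate 3 the lowest. Its log2 fold change was 0.65 ± 0.23 (SE, unadjusted limma p 0.0304, adjusted 0.57), and 0.40 without control replicate 3. The unadjusted p was 0.0707 without DFX replicate 2 and 0.0858 without DFX replicate 3.

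SPRED2, an inhibitor of RAS-ERK signaling, read 7.99, 8.003 and 8.13 in controls and 7.67, 7.78 and 7.75 in DFX tumors, again without overlap. Its log2 fold change was -0.31 ± 0.10 (SE), with an unadjusted limma p of 0.0225 and an adjusted p of 0.553. The unadjusted p was 0.0844 without DFX replicate 1 and 0.0515 without control replicate 3. SPRED2 was no longer called in 4 of the 20 alternatives. LRIG1, which promotes breakdown of ERBB receptors, had a log2 fold change of 0.42 (unadjusted limma p 0.142), 0.67 without control replicate 1 (unadjusted p 0.0117) and 0.23 without control replicate 3 (unadjusted p 0.374).

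Of the 20 transcripts known to be induced by receptor and ERK signaling, 0 were called by limma in either direction (0 to 1 over the 20 alternatives). Their median log2 fold change was -0.03, against -0.01 for all tested genes. MYC, a transcription factor of cell growth, was at -0.35 on the log2 scale. Left-out controls moved it both ways, to -0.67 without control replicate 1 (unadjusted p 0.00776) and to -0.10 without control replicate 3 (unadjusted p 0.709). DUSP6, a phosphatase that is a sensitive readout of ERK activity, had a log2 fold change of -0.03, EGR1 of -0.23 and FOS of -0.13, none of them called. DUSP6, EGR1 and FOS were named after their values were seen.

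**Figure D5:**
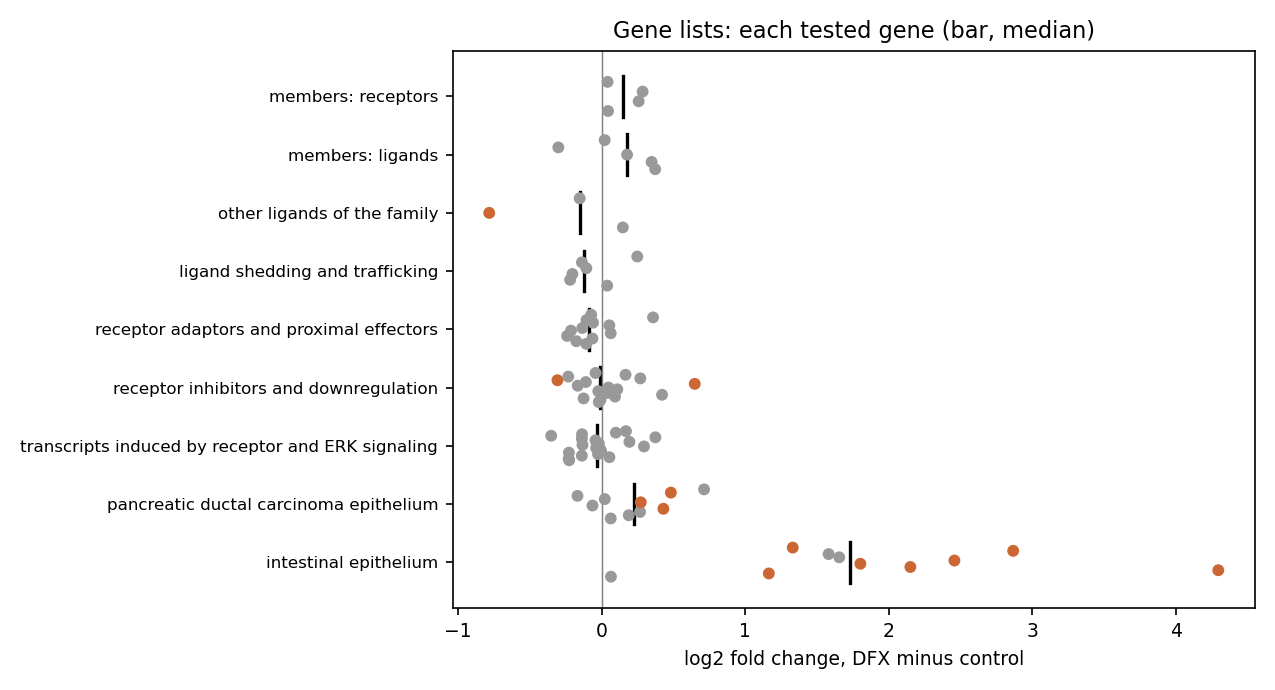
Log2 fold change, DFX minus control, of the brightest tested probe of each gene in the receptor, ligand, pathway and epithelial lists, with a black bar at each list's median. Orange points have an unadjusted limma p under 0.05 and grey points do not. The receptor and ligand medians are 0.15 and 0.18, the pathway lists lie between -0.15 and -0.01, and intestinal epithelium is at 1.73. All lists were chosen with earlier results of these data known.

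Genes that mark cell types moved beside these values. Of all 22718 tested genes, 837 were called higher and 975 lower, 7.98% in either direction. At an unadjusted limma p under 0.05, 3 of 10 genes of the ductal carcinoma list rose (EPCAM by 0.43, KRT18 by 0.27 and KRT8 by 0.48 on the log2 scale) and 0 fell. The log2 of its summed intensity, to which KRT19 gave more than any other gene, was 19.45 to 19.48 in controls and 19.50 to 19.52 in DFX tumors. With any one of DFX replicate 1, DFX replicate 2 and control replicate 3 left out, 1 gene was called, and in the last case the median was 0.05 in place of 0.23. With median scaling 1 gene of this list was called, and with the slide column as a block 0. The other tested KRT8 probes had log2 fold changes of 0.24 and -0.12. The list of intestinal epithelium, like the other lists, was chosen with earlier results of these data known, so its count is not independent support. In that list 7 of 10 tested genes rose (FABP1, PHGR1, KRT20, GPA33, GUCY2C, VIL1 and CDX2) and 0 fell, with a median of 1.73. Without control replicate 3 the median was 1.04 and 6 genes were called, and leaving out any 1 tumor gave 4 calls (without DFX replicate 1 or 2) to 8 (without control replicate 2). FABP1 and GUCY2C were well above background in 1 and 0 of 3 controls. The array probes are annotated to human transcripts. Signal of fibroblast, endothelial, leukocyte and red cell genes can therefore come from mouse RNA that binds these probes or from the tumor cells. Its source was not tested. Among 8 tested fibroblast genes LUM rose and DCN and PDGFRA fell (2 to 4 called when 1 tumor was left out). The log2 of the summed intensity of the fibroblast genes was 13.76 to 14.49 in controls and 13.64 to 13.95 in DFX tumors. Of 5 tested endothelial genes PECAM1 rose (2 called without control replicate 2), with log2 sums of 9.05 to 9.96 in controls and 9.24 to 9.36 in DFX tumors. Of 6 leukocyte genes 0 were called (1 without DFX replicate 3), with log2 sums of 11.40 to 11.56 in controls and 11.57 to 11.69 in DFX tumors. Of 5 red cell genes HBA2 and HBD fell, with log2 sums of 12.72 to 12.97 in controls and 11.61 to 11.68 in DFX tumors. Other tested HBA2 probes had log2 fold changes of -1.99 and, at a dim probe whose groups overlapped, -0.46. Of 5 acinar and endocrine genes 0 were called, with log2 sums of 11.22 to 11.51 in controls and 11.42 to 11.48 in DFX tumors. The part of these shifts in the values of the receptors and ligands was not tested. For the receptors the log2 of the summed intensity was 12.90 to 13.39 in controls and 13.37 to 13.45 in DFX tumors, and for the ligands it was 11.66 to 12.21 in controls and 11.94 to 12.08 in DFX tumors.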

How the data were processed

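RNA of 6 BxPC-3 tumors, 3 control and 3 DFX, was hybridized to 1-color Agilent arrays with 60-base probes. The authors deposited scanner files with intensities on a linear scale, a p-value of each spot against its background and flags, and a table of their normalized intensity values, which matched a quantile normalization of the processed signal. The submitters' notes name Feature Extraction 9.5.1.1 and the file headers 10.7.1.1. After the study's methods, the processed signal of 58717 non-control spots was log2-transformed and quantile-normalized. The 1398 flagged outlier spot values were left out, spots were averaged per probe (50599), and probes with a background p under 0.05 on all 6 arrays were tested (31807). The groups were compared by limma (3.58.1, R 4.3.3), and p values were adjusted by Benjamini-Hochberg across every tested probe. Its test was checked on simulated data. Differences between probes and correlations used two-sided exact permutation tests. A gene in a list is represented by its brightest tested probe. Positions and names are those of the array annotation (hg19), and promoter sequences come from RefSeq (GRCh38.p14).

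The members and lists were chosen with earlier results of these data known. Every member probe is named. From each list, genes with an unadjusted p under 0.05 are named, and from the pathway lists also the 2 largest changes among genes well above background on all arrays. Of these, 1 gene is not reported here. For EGFR and AREG the 3 most similar genes are named. DFX and control tumors carry replicate numbers only as names. Alternatives covered scaling, background correction, signal column, the authors' values, filters, outlier spots, the test, array weights, blocks for replicate number and slide column, and each tumor left out.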

Additional observations from a re-analysis of the deposited data

How the results depend on the processing

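The number of family probes called at an unadjusted p under 0.05 was 0 with limma and stayed at 0 in 13 of 20 alternatives. It was 1 with the raw mean signal (BTC), 1 by the Kruskal-Wallis H test (BTC), 2 under array quality weights (AREG and BTC), and it ran from 0 to 2 when each tumor was left out. After adjustment it was 0 in every one of the 20 alternatives. Of all probes, 2675 were called by limma, while the Kruskal-Wallis H test called 4927 and a block on the slide column left 1418. Replicate numbers did not pair the tumors (correlations of deviations between same-numbered tumors 0.03, 0.03 and 0.02). With the replicate block, 0 family probes and 2419 of all probes were called, and SH3KBP1 (unadjusted limma p 0.0556) and SPRED2 (0.0589) were no longer called.

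Of the 16 tested family probes, 7 kept their direction in every alternative. The other 9 reversed in 26 of 319 values, none of them with an unadjusted p under 0.05. With median scaling the log2 fold change was -0.075 for full-length EGFR, -0.069 for the ERBB3 short form and -0.082 for the brighter TGFA probe. With 75th percentile scaling it was 0.041 for the EGFR coding probe. For ERBB4 it was -0.014 with normexp, -0.020 with the raw mean signal and -0.066 with array weights, which also gave -0.056 for full-length EGFR. With the slide column as a block it was 0.0068 for the EGFR coding probe, -0.017 for the dimmer TGFA probe and -0.051 for the brighter one. With each tumor left out, the range was -0.069 to 0.13 for full-length EGFR, -0.12 to 0.078 for the EGFR coding probe, -0.17 to 0.011 for the second ERBB2 probe, -0.059 to 0.10 for the ERBB3 short form, -0.31 to 0.32 for ERBB4, -0.032 to 0.55 for the dimmer TGFA probe, -0.015 to 0.084 for the brighter one, -0.061 to 0.36 for the AREG coding probe and -0.10 to 0.48 for EREG. The difference between the EGFR probes, an alternative chosen after seeing the data, stayed between 0.22 and 0.42. Over all alternatives the median log2 fold change ran from 0.01 to 0.36 for the receptors and from 0.01 to 0.38 for the ligands. With 3 arrays per group, small changes of dim probes were not detectable.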
